A study of Homo sapiens with 3 samples.

Results

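The enzymes of glycolysis and the genes induced by hypoxia-inducible factor (HIF) were followed in the estrogen receptor-positive human breast cancer line T47D 3 h after a peptide or a hormone was added. The list held 40 genes, chosen by symbol as core enzymes of glucose breakdown, their transporters and regulators, and known HIF targets. Of these 37 were measured, by 85 probe sets that each carry a single gene name, among 19775 genes in all. SLC16A3, CA9 and FUT11 had no such probe set in the annotation used, so no expression value is given for them. Cells were first kept for 4 h in RPMI medium with 10% charcoal-stripped serum, which is depleted of steroid hormones. They then received ERα17p at 1 µM, estradiol at 1 µM or the ethanol vehicle at 0.1%. Estradiol is the natural ligand of estrogen receptor α, and ERα17p is a peptide whose sequence is taken from that receptor. Each of the 3 groups had 1 array, so a difference has no error between cultures. No label names a change of oxygen or of glucose.

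Glycolysis turns glucose into pyruvate in the cytosol and yields ATP without oxygen, and lactate dehydrogenase then reduces the pyruvate to lactate. HIF is a transcription factor made of an oxygen-labile α subunit and a stable partner. Prolyl hydroxylases of the EGLN family mark the α subunit for destruction while oxygen is present. When HIF accumulates it induces glucose transporters, most glycolytic enzymes, angiogenic factors and its own hydroxylases, so that enzymes and other targets are often seen to rise together in hypoxia. Breast cancer cells commonly use glycolysis even in the presence of oxygen.

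Values are on the log2 scale and relative to a baseline of each probe set that is not stated, so levels of different genes cannot be compared and the presence of the T47D markers could not be checked. Every difference below takes a probe set's baseline to be the same for all 3 arrays, which could not be checked. Between arrays, the 8 luminal markers had a median difference of 0.01 for ERα17p minus vehicle and 0.02 for estradiol minus vehicle. They ran from −0.22 to 0.89 and from −0.16 to 1.44, with PGR the highest in both. Of the 4 genes listed for estrogen response, MYC, PGR and GREB1 were more than 1.5-fold higher with estradiol than with vehicle, and TFF1 was lower. With ERα17p, PGR differed from vehicle by 0.89 and TFF1 by −2.92, while MYC and GREB1 were under 1.5-fold, at 0.38 and 0.24. The array of vehicle-treated cells differed from the other arrays in several ways. Over all genes the SD of its values was 0.37, against 0.14 on the ERα17p array and 0.13 on the estradiol array. This SD is taken around the unknown baselines and contains the gene differences given below, so it is no separate measure of the array. Among the control probe sets for GAPDH, the set at the 3′ end differed by −0.34 for ERα17p minus vehicle and by −0.41 for estradiol minus vehicle, while the set at the 5′ end differed by 0.05 and 0.08. The 3′ set for ACTB differed by −0.47 with ERα17p and by −0.42 with estradiol, and its 5′ set by 0.22 and 0.40. For 18S ribosomal RNA, control sets differed from vehicle by 1.76 ± 0.39 (SD, n = 3 probe sets) with ERα17p and by 1.87 ± 0.34 with estradiol. The part of these array properties in the differences from vehicle below was not tested. The comparison of ERα17p with estradiol does not use the vehicle array, and the comparisons with vehicle share it.

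Of the 17 glycolytic enzymes, 7 were at least 1.5-fold lower with ERα17p than with vehicle and 6 with estradiol. Among the HIF targets outside the pathway, EGLN3, BNIP3L and EGLN1 were higher by that size with ERα17p and NDRG1 and VEGFA lower. With estradiol BNIP3L and EGLN1 were higher and NDRG1 was lower. Of all genes, 6.88% were higher and 8.76% lower by that size with ERα17p, and 6.48% and 8.42% with estradiol. The median over the 17 enzymes was −0.48 for ERα17p minus vehicle, and the median over 13 HIF targets was 0.16. For estradiol minus vehicle the enzyme median was −0.34 and the HIF target median 0.11. The HIF target median thus exceeded the enzyme median by 0.65 with ERα17p and by 0.45 with estradiol, beside medians over all genes of 0.001 and −0.004. Between the treated arrays this gap was 0.08. With transporters and regulators counted among the targets, the HIF target median for ERα17p minus vehicle was −0.0098 and still exceeded the enzyme median, by 0.47.

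**Figure D1:**
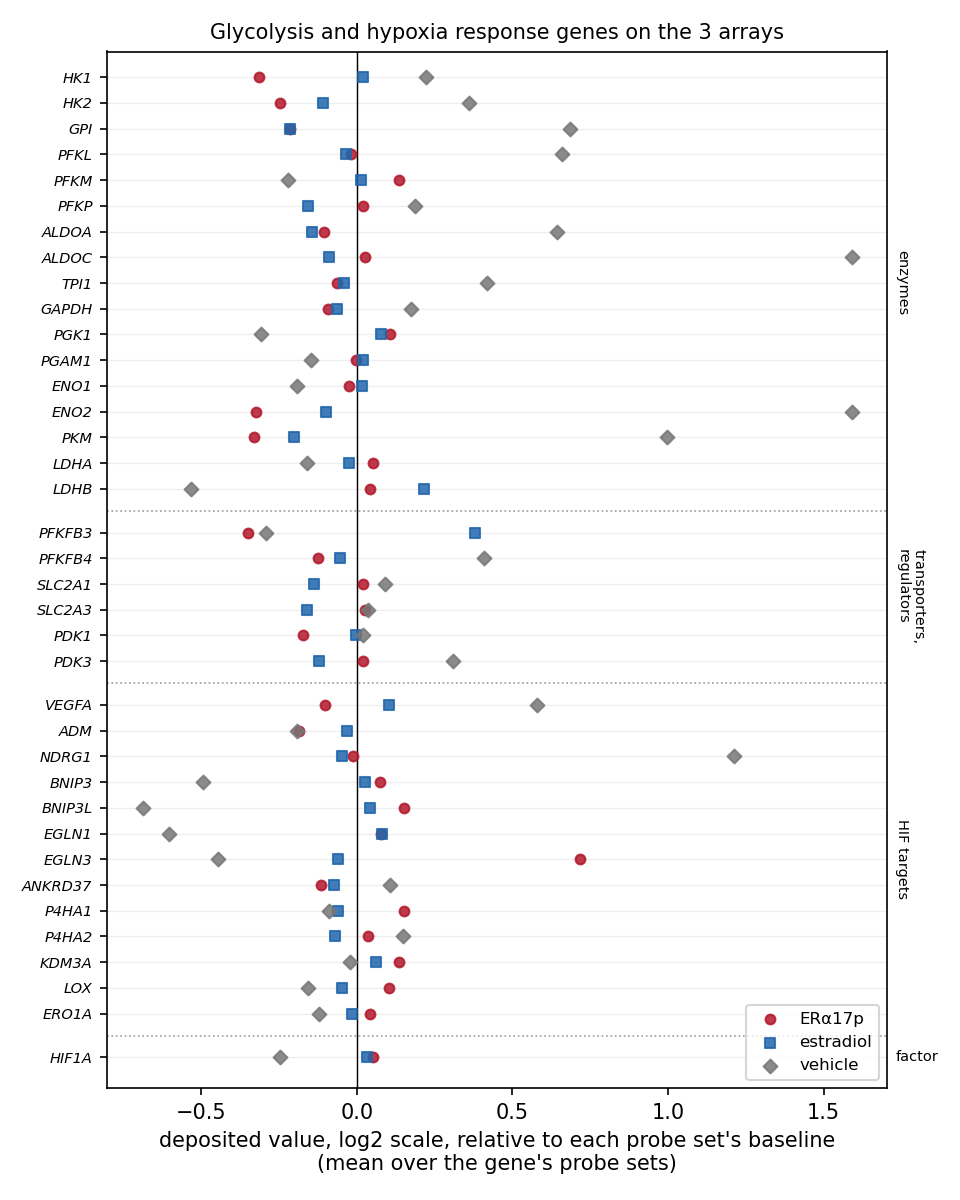
Deposited value (log2 scale, relative to the baseline of each probe set, mean over a gene's probe sets) of the 37 measured members on the ERα17p, estradiol and vehicle arrays, by role. The ERα17p and estradiol points lie close together for most members, and the vehicle points spread furthest, from −0.69 for BNIP3L to 1.59 for ALDOC and ENO2.

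Of the 37 members, 9 were at least 1.5-fold lower on the ERα17p array than on the vehicle array, where 8.76% of all genes were, and 3 were at least 1.5-fold higher, where 6.88% of all genes were. In percent of the members these are 24.3 lower and 8.11 higher. With estradiol 7 members were at least 1.5-fold lower, a share of 18.9% beside 8.42% of all genes, and 4 were at least 1.5-fold higher, a share of 10.8% beside 6.48%. At 2-fold, 4 members were lower in each comparison, beside 1.87% of all genes with ERα17p and 1.63% with estradiol. At that size 1 member was higher with ERα17p and 0 with estradiol, beside 1.9% and 1.57% of all genes. The 4 members lower by 2-fold in both comparisons were ENO2, ALDOC, PKM and NDRG1.

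The 7 enzymes lower by 1.5-fold or more with ERα17p are 41.2% of the 17, beside 8.76% of all genes, and 0 were higher. With estradiol the 6 lower are 35.3%, beside 8.42% of all genes, and 1 was higher. The difference was below 0 for 11 of the 17 enzymes in each comparison with vehicle. Of all 19775 genes, 9858 lay below 0 with ERα17p and 10005 with estradiol. Entry of glucose into the pathway is catalysed by hexokinase. HK2, the inducible hexokinase, stood at −0.25 on the ERα17p array, −0.11 on the estradiol array and 0.36 on the vehicle array, a difference from vehicle of −0.61 ± 0.33 (SD, n = 3 probe sets) with ERα17p and of −0.47 ± 0.26 with estradiol. HK1, the widely expressed form, stood at −0.31, 0.02 and 0.22 in the same order of arrays. Its difference from vehicle was −0.54 with ERα17p and −0.20 with estradiol, both under 1.5-fold, and HK1 was the enzyme that differed most between the treated arrays, at −0.33 for ERα17p minus estradiol.

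GPI, which turns glucose 6-phosphate into fructose 6-phosphate, had −0.21 on the ERα17p array, −0.21 on the estradiol array and 0.68 on the vehicle array. Its difference from vehicle was −0.90 with either agent, from a single probe set. The subunits of phosphofructokinase, the committed step of the pathway, had differences of either sign. PFKL, the liver type, differed from vehicle by −0.68 ± 0.24 (SD, n = 2 probe sets) with ERα17p and by −0.69 ± 0.25 with estradiol. PFKM, the muscle type, stood at 0.13 and 0.01 on the ERα17p and estradiol arrays, against −0.22 on the vehicle array, which is under 1.5-fold with either agent. PFKP, the platelet type, had probe sets that disagreed, at −0.81 and 0.48 for ERα17p minus vehicle and at −0.57 and −0.11 for estradiol minus vehicle.

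Aldolase splits the phosphorylated sugar into trioses, and both of its listed forms were lower on the treated arrays. ALDOA, the common form, differed from vehicle by −0.75 ± 0.23 (SD, n = 3 probe sets) with ERα17p and by −0.79 ± 0.50 with estradiol. ALDOC, the brain-type form, stood at 0.03 on the ERα17p array, −0.09 on the estradiol array and 1.59 on the vehicle array. These values put it −1.56 from vehicle with ERα17p and −1.68 with estradiol, from 1 probe set, which ranked 40 and 30 from the lowest of the 19775 genes. TPI1, which interconverts the triose phosphates, differed by less than 1.5-fold, at −0.48 ± 0.18 (SD, n = 3 probe sets) with ERα17p and −0.46 ± 0.20 with estradiol.

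The enzymes below the triose phosphates had differences from vehicle on both sides of 0. GAPDH, the first of them, differed from vehicle by −0.27 ± 0.07 (SD, n = 3 probe sets) with ERα17p and by −0.24 ± 0.02 with estradiol. PGK1, which makes the first ATP of the pathway, stood at 0.41 ± 0.20 (SD, n = 6 probe sets) and 0.38 ± 0.29 from vehicle, and each of its 6 probe sets lay above 0 in both comparisons. PGAM1, the mutase, had values of −0.003 on the ERα17p array, 0.02 on the estradiol array and −0.15 on the vehicle array. Enolase makes phosphoenolpyruvate. ENO2, the neuronal form, stood at −0.32 on the ERα17p array, −0.10 on the estradiol array and 1.59 on the vehicle array. At −1.92 with ERα17p and −1.69 with estradiol, it had the lowest difference from vehicle of all members. ENO1, the ubiquitous form, had a mean of 0.17 ± 0.62 (SD, n = 4 probe sets) with ERα17p and of 0.21 ± 0.60 with estradiol, and its probe sets ran from −0.59 to 0.88 with ERα17p and from −0.57 to 0.89 with estradiol. No direction can be read for ENO1 from such sets. Like GAPDH, PGK1 and the lactate dehydrogenases, ENO1 has processed pseudogenes with near-identical sequence, which probes can also bind.

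PKM, the pyruvate kinase that ends the pathway, had −0.33 on the ERα17p array, −0.20 on the estradiol array and 0.996 on the vehicle array. Both of its probe sets were lower, with a mean difference from vehicle of −1.33 ± 0.37 (SD, n = 2 probe sets) with ERα17p and of −1.20 ± 0.17 with estradiol. LDHB, whose subunit favours pyruvate formation, differed from vehicle by 0.58 ± 0.09 (SD, n = 2 probe sets) with ERα17p, just under 1.5-fold, and by 0.75 ± 0.00 with estradiol. It was the enzyme counted as higher with estradiol. LDHA, the HIF-induced subunit that favours lactate, stood at 0.05 and −0.03 on the ERα17p and estradiol arrays and at −0.16 on the vehicle array.

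**Figure D2:**
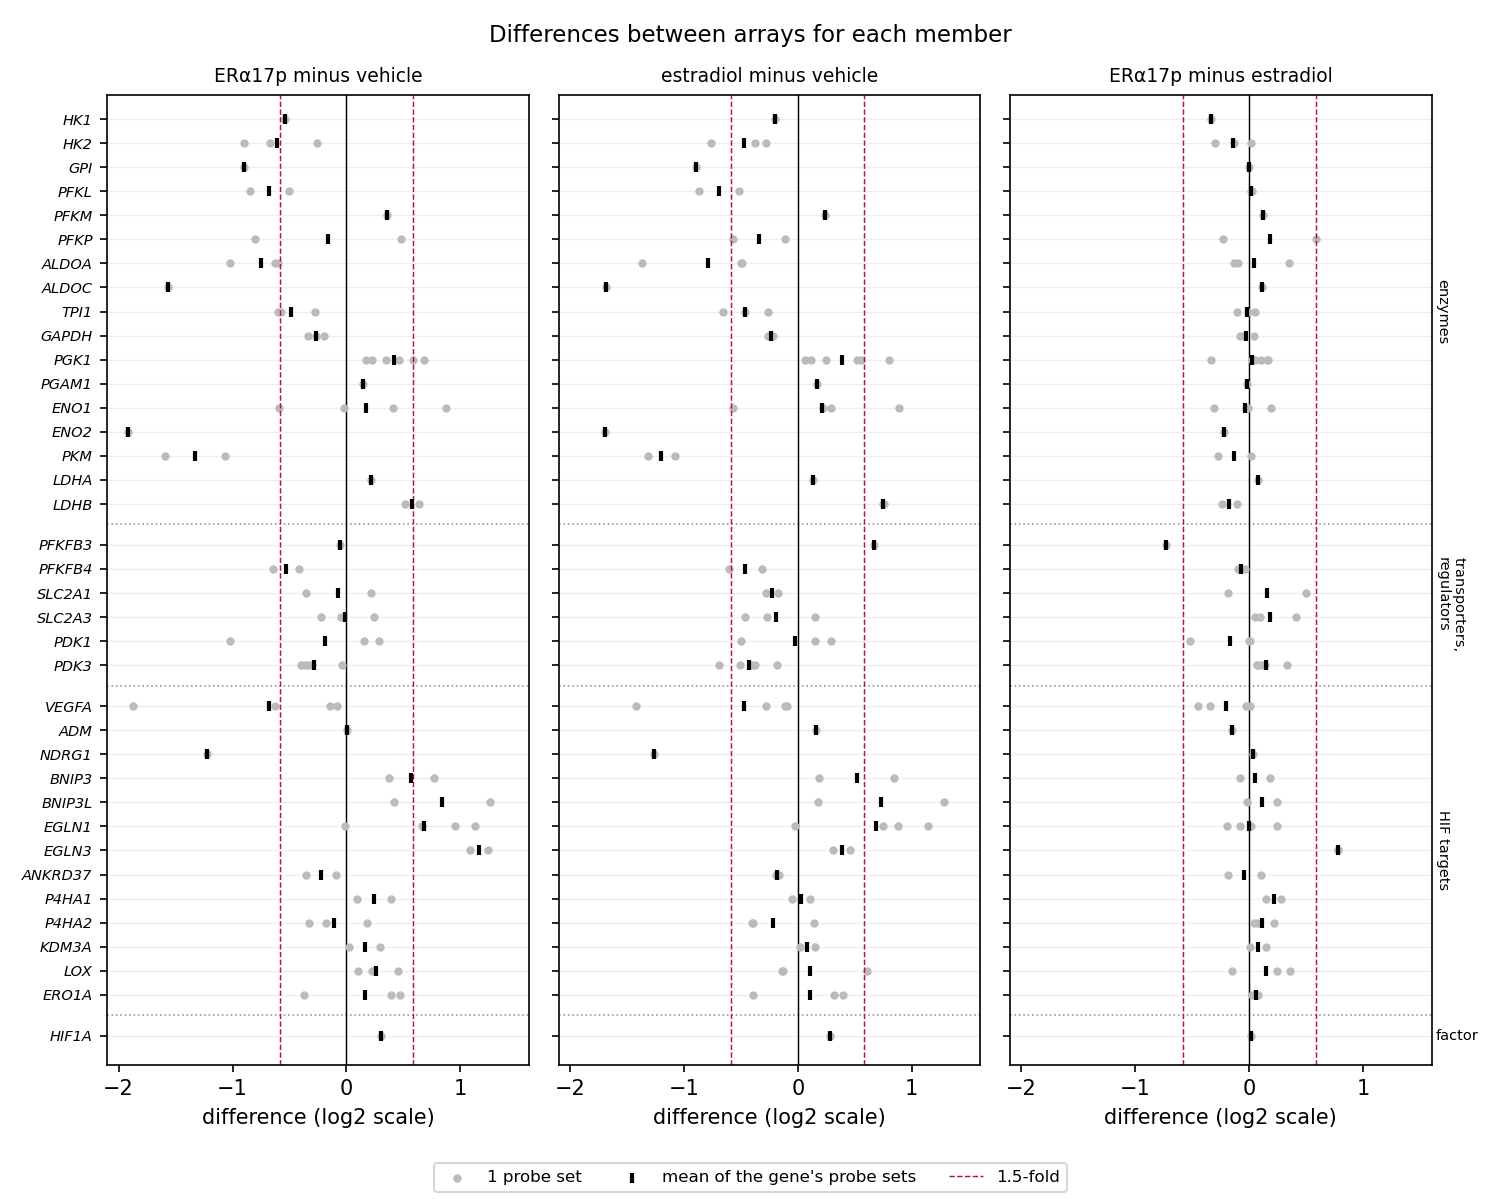
Difference of each member (log2 scale) for ERα17p minus vehicle, estradiol minus vehicle and ERα17p minus estradiol, with grey points for single probe sets, black bars for their mean and dashed lines at 1.5-fold. ENO2, ALDOC, PKM and NDRG1 lie furthest below 0 in both comparisons with vehicle, and for ERα17p minus estradiol the means of EGLN3 and PFKFB3 alone lie beyond the dashed lines, as does 1 single probe set of PFKP, at 0.59.

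The promoters of ALDOC and ENO2, the enzymes with the lowest differences from vehicle, are shown because HIF binds DNA at a short core. The windows run from 250 bases before to 50 bases after the start of the gene, in RefSeq's GRCh38.p14 annotation, on the strand of the gene. They lie at chr17:28576846-28577145 on the minus strand for ALDOC and at chr12:6914330-6914629 on the plus strand for ENO2. Capitals mark ACGTG or GCGTG, the cores of the hypoxia response element, on either strand.
ALDOC: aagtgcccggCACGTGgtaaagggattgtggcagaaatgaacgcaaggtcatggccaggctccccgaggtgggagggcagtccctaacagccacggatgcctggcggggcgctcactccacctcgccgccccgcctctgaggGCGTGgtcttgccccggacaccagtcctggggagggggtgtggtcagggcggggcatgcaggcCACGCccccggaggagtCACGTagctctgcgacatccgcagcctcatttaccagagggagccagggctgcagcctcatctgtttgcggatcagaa
ENO2: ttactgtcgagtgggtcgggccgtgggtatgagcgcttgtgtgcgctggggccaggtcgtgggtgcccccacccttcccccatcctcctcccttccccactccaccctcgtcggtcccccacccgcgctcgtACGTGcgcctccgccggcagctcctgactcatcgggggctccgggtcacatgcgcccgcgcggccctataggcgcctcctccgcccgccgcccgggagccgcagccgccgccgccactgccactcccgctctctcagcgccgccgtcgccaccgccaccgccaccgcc
The ALDOC window held 3 matches to ACGTG and 2 to GCGTG over both strands, and the ENO2 window held 1 match to ACGTG and 0 to GCGTG. A palindromic CACGTG, which is also an E-box bound by MYC and related factors, counts on each strand, and ALDOC has 1. A match is not evidence of binding.

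The HIF targets outside the pathway numbered 13 measured genes. At 1.5-fold or more, 3 of them were higher and 2 lower with ERα17p, and 2 were higher and 1 was lower with estradiol. In percent of the 13 these are 23.1 higher and 15.4 lower with ERα17p, beside 6.88 and 8.76 of all genes, and 15.4 higher and 7.69 lower with estradiol, beside 6.48 and 8.42. The difference lay above 0 for 9 of the 13 in each comparison with vehicle. Of all 19775 genes, 9915 lay above 0 with ERα17p and 9769 with estradiol. Among the 9, EGLN1 and ERO1A had probe sets on both sides of 0 in both comparisons, and LOX and P4HA1 with estradiol. HIF1A itself, the gene of the oxygen-labile subunit, had 0.05 on the ERα17p array, 0.03 on the estradiol array and −0.25 on the vehicle array, a difference from vehicle of 0.30 and 0.28. HIF1A is regulated mainly at the protein level, which arrays do not show.

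The HIF hydroxylase genes among the 37 members were EGLN1 and EGLN3. EGLN1, the main oxygen sensor, stood at 0.08 on both the ERα17p and the estradiol array and at −0.61 on the vehicle array, a difference of 0.68 ± 0.50 (SD, n = 4 probe sets) with ERα17p and of 0.69 ± 0.50 with estradiol. One of its 4 probe sets was near 0 in both comparisons, at −0.01 and −0.02, while the others lay between 0.66 and 1.13 with ERα17p and between 0.74 and 1.14 with estradiol. EGLN3, a hydroxylase that hypoxia strongly induces, stood at 0.72 on the ERα17p array, −0.06 on the estradiol array and −0.45 on the vehicle array. It differed from vehicle by 1.16 ± 0.11 (SD, n = 2 probe sets) with ERα17p, the highest difference of any member, and by 0.39 ± 0.11 with estradiol.

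BNIP3 and BNIP3L encode related receptors that send mitochondria to autophagy. BNIP3L differed from vehicle by 0.84 ± 0.60 (SD, n = 2 probe sets) with ERα17p and by 0.73 ± 0.78 with estradiol. Its probe sets were far apart, at 1.26 and 0.42 with ERα17p and at 1.29 and 0.18 with estradiol. BNIP3 stood just under 1.5-fold, at 0.57 ± 0.28 (SD, n = 2 probe sets) with ERα17p and 0.52 ± 0.47 with estradiol, and both of its sets lay above 0 in both comparisons.

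The promoters of EGLN1, at least 1.5-fold higher on both treated arrays, and of BNIP3, just under that size, are printed for comparison with those of ALDOC and ENO2. They lie at chr10:131981874-131982173 for BNIP3 and at chr1:231422238-231422537 for EGLN1, both on the minus strand, with the same capitals and window.
BNIP3: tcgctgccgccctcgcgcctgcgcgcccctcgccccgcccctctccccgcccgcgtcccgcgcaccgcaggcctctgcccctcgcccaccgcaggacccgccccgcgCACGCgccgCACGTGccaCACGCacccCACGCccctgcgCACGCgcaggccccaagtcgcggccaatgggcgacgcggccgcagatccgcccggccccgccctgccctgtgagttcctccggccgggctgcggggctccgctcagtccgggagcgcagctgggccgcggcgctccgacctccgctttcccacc
EGLN1: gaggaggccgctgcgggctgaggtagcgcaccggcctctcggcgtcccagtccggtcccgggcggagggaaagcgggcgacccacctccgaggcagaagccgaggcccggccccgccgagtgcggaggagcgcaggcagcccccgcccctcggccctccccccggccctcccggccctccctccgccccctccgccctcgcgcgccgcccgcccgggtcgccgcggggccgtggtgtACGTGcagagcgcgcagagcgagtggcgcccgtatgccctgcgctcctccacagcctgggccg
The BNIP3 window held 2 matches to ACGTG, both from 1 CACGTG, and 4 to GCGTG, and the EGLN1 window held 1 match to ACGTG and 0 to GCGTG. The cores thus occur in the windows of ALDOC and ENO2, which were lower, as well as of EGLN1, which was higher. Of the 40 listed genes, SLC16A3 and CA9 included, 35 had at least 1 window in the RefSeq table, 65 windows in all, some of which overlap, and 33 of these genes, with 59 windows, were measured on the arrays. At least 1 core was found in 45 of these windows, 69.2%, beside 48.4% of all 35116 windows of the same length. By core, ACGTG was in 43.1% of the listed genes' windows and GCGTG also in 43.1%, beside 21.4% and 36.5% of all windows. Either core was in 62.2% of the 37 windows of enzymes and in 85.7% of the 14 windows of HIF targets. Counted by gene the order was the reverse. At least 1 window with a core was found for 16 of 17 enzymes, 94.1%, and for 9 of 11 HIF targets, 81.8%. The share of all 27305 genes with a window was 52.4%. A gene counted if any of its windows held a core. The 17 enzymes had 37 windows, the 11 HIF targets 14 and all 27305 genes 35116. A gene with more windows has more places for a match, so these shares by gene cannot be compared directly. EGLN3, P4HA2 and PGAM1 had no match in their windows. No window was available for VEGFA, NDRG1, BNIP3L, SLC2A3 and FUT11. The HIF target shares thus leave out VEGFA, NDRG1 and BNIP3L and include CA9, which was not measured.

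NDRG1, a growth-restraining gene that hypoxia strongly induces, was lower on both treated arrays. It stood at −0.01 on the ERα17p array, −0.05 on the estradiol array and 1.21 on the vehicle array, a difference from vehicle of −1.23 and −1.26 from 1 probe set. VEGFA, the main angiogenic growth factor, had 4 probe sets that were all below 0 in both comparisons but very unequal. They ran from −1.87 to −0.08 with ERα17p, with a mean of −0.68 ± 0.83 (SD, n = 4 probe sets), and from −1.42 to −0.09 with estradiol, with a mean of −0.48 ± 0.64.

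The other HIF targets differed from vehicle by less than 1.5-fold with either agent. The vasodilator peptide gene ADM stood at 0.01 and 0.16 from vehicle, with ERα17p and estradiol in that order. The collagen prolyl hydroxylase gene P4HA1 stood at 0.24 ± 0.21 (SD, n = 2 probe sets) and 0.03 ± 0.11. Its relative P4HA2 stood at −0.11 ± 0.26 (SD, n = 3 probe sets) and −0.22 ± 0.31. LOX, which crosslinks collagen, stood at 0.26 ± 0.18 (SD, n = 3 probe sets) and 0.11 ± 0.43. The sets of P4HA2 lay on both sides of 0 with either agent, and those of P4HA1 and LOX with estradiol. Whether these matrix genes share a direction cannot be read from such sets. The histone demethylase gene KDM3A stood at 0.16 and 0.08, the oxidoreductase gene ERO1A, which serves disulfide formation, at 0.16 ± 0.46 (SD, n = 3 probe sets) and 0.11 ± 0.44, and the ankyrin repeat gene ANKRD37 at −0.22 and −0.18.

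**Figure D3:**
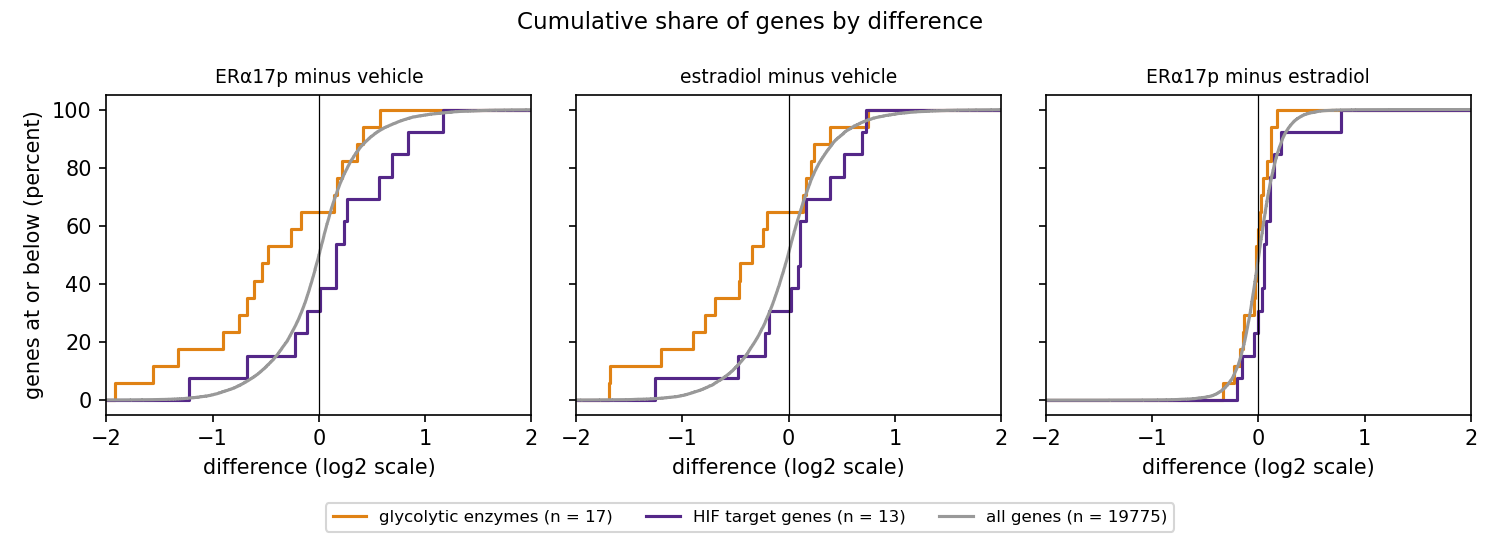
Percent of genes at or below each difference (log2 scale) for the 17 glycolytic enzymes, the 13 HIF target genes and all 19775 genes, in the 3 comparisons. In both comparisons with vehicle the enzyme line lies left of the line of all genes over most of the range below 0, and for ERα17p minus estradiol the 3 lines run close together apart from EGLN3.

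Transporters and regulators of glucose use were 6 measured genes, and none of them was at least 1.5-fold different from vehicle with ERα17p. All 6 lay below 0 with ERα17p, and 5 of 6 lay below 0 with estradiol, beside 9858 and 10005 of all 19775 genes. The glucose transporter genes SLC2A1 and SLC2A3 stood at −0.07 ± 0.41 (SD, n = 2 probe sets) and −0.01 ± 0.23 (SD, n = 3 probe sets) from vehicle with ERα17p, and at −0.23 ± 0.07 and −0.20 ± 0.31 with estradiol. For SLC2A3, 2 further probe sets that also name SLC2A14 lay at 0.01 and 0.06 with ERα17p and at 0.21 and 0.31 with estradiol.

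The pyruvate dehydrogenase kinases restrain the oxidation of pyruvate in mitochondria. PDK3 had values below vehicle in all 5 of its probe sets, with a mean difference of −0.29 ± 0.14 (SD, n = 5 probe sets) with ERα17p and of −0.43 ± 0.19 with estradiol. PDK1 had sets on both sides of 0, with means of −0.19 ± 0.72 (SD, n = 3 probe sets) and −0.02 ± 0.42. The bifunctional enzymes PFKFB3 and PFKFB4 set the level of fructose 2,6-bisphosphate, which activates phosphofructokinase. PFKFB4 stood at −0.53 ± 0.16 (SD, n = 2 probe sets) and −0.46 ± 0.20 from vehicle with ERα17p and estradiol. PFKFB3 differed from it in pattern, with −0.35 on the ERα17p array, 0.38 on the estradiol array and −0.29 on the vehicle array. It was therefore higher by 0.67 with estradiol and differed by −0.06 with ERα17p, from 1 probe set.

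Between the 2 agents at the same dose and time, 35 of 37 members differed by less than 1.5-fold, and EGLN3 and PFKFB3 were the exceptions. EGLN3 was higher with ERα17p by 0.78 ± 0.00 (SD, n = 2 probe sets), a 1.71-fold difference that ranked 33 from the highest of all genes. PFKFB3 was lower with ERα17p, at −0.73, a 1.66-fold difference that ranked 61 from the lowest. At 1.5-fold or more, 0.521% of all genes were higher and 0.607% lower with ERα17p than with estradiol, and at 2-fold 0.0607% and 0.086%, where 0 members stood in either direction. The median absolute difference was 0.110 over members and 0.109 over all genes.

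ENO2, ALDOC, PKM and NDRG1, the members furthest below vehicle, differed between the agents by −0.23, 0.12, −0.13 and 0.03. The highest differences after EGLN3 were 0.21 for P4HA1 and 0.19 for SLC2A3, and the lowest after PFKFB3 were −0.33 for HK1 and −0.23 for ENO2. The HIF target median was 0.06 and the enzyme median −0.02. In the absence of replicate arrays none of these can be set against a spread between cultures.

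Agreement between probe sets of a gene gives the only internal check of a difference. It cannot check the arrays themselves, because the sets of a gene are read on the same arrays from the same RNA. Of the 26 members with more than 1 probe set, 18 had all sets on the same side of 0 for ERα17p minus vehicle, 69.2% beside 45.4% of the 10523 genes with several sets. For estradiol minus vehicle it was also 18, or 69.2% beside 44.3%, and for ERα17p minus estradiol 10, or 38.5% beside 37.3%. All 11 other members, among them ENO2, ALDOC, GPI, NDRG1 and PFKFB3, rest on a single set. Both the higher and the lower counts fell without probe sets whose names end in _x_at or _s_at, which can bind more than one transcript. Of the members that kept other sets, 2 counted as higher fell under 1.5-fold in each comparison with vehicle, and 0 counted as lower did. Without the _x_at and _s_at sets 22 members were left, of 17098 genes in all. Of these 22, 0 were at least 1.5-fold higher in any comparison, while 5 were lower with ERα17p and 3 with estradiol. The share of all genes at that size was not computed without these sets, so these counts have no background beside them. Of the 9 members counted as lower with ERα17p, 5 had no set left, namely GPI, PFKL, ALDOA, NDRG1 and VEGFA, and 4 kept that size, while PFKP was added at −0.81. Of the 7 lower with estradiol, 4 had no set left and 3 kept that size. BNIP3L then stood at 0.42 with ERα17p and 0.18 with estradiol, EGLN1 at 0.56 and 0.43, and EGLN3, LDHB and PFKFB3 had no set left. ENO2 and ALDOC were measured by other sets and kept their values, and PKM stood at −1.06 and −1.08.

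**Figure D4:**
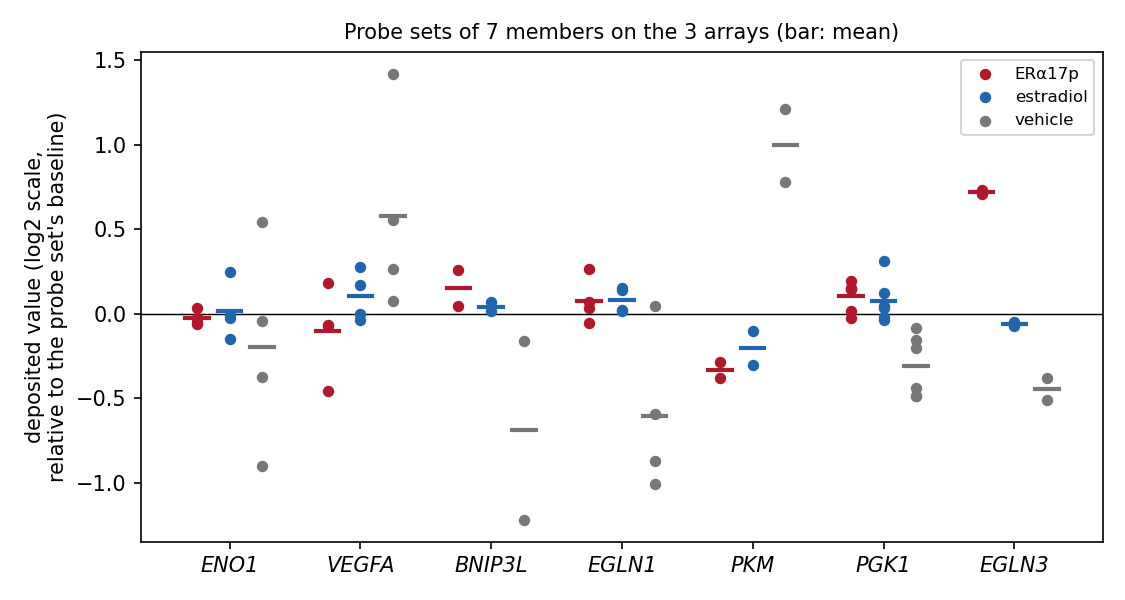
Deposited value (log2 scale, relative to the baseline of each probe set) of every probe set of 7 members on the ERα17p, estradiol and vehicle arrays, with bars at the mean. The sets of ENO1, VEGFA, BNIP3L and EGLN1 scatter widely on the vehicle array, whereas both sets of PKM are highest there and both sets of EGLN3 are highest on the ERα17p array, at a mean of 0.72.

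Other genes of glucose use and of the HIF response, 91 measured of 99 listed, lay on both sides of vehicle. At 1.5-fold or more, 9 were higher and 13 lower than vehicle with ERα17p, and 12 were higher and 14 lower with estradiol. In percent of the 91 these are 9.89 higher and 14.3 lower with ERα17p, beside 6.88 and 8.76 of all genes, and 13.2 higher and 15.4 lower with estradiol, beside 6.48 and 8.42. Their medians were −0.10 and −0.14. PDP1, the phosphatase that opposes the PDK kinases, was higher by 1.71 ± 0.94 (SD, n = 2 probe sets) with ERα17p and by 1.21 ± 0.90 with estradiol. TIGAR, which lowers fructose 2,6-bisphosphate, was higher by 1.15 and 1.04. Lower were DDIT4, an mTOR inhibitor induced by hypoxia and by other stresses, at −1.44 and −2.18, and the heme oxygenase gene HMOX1, at −1.20 and −1.43. MLXIPL, the gene of the glucose-sensing factor ChREBP, stood at −1.04 and −0.91, and the lactate dehydrogenase D gene LDHD at −1.16 and −0.79. TMEM45A, a hypoxia-induced membrane protein gene, stood at −0.92 and −1.10, and the hypoxia- and estrogen-responsive glycoprotein gene STC2 at 0.39 ± 0.22 (SD, n = 2 probe sets) and 1.09 ± 0.47.

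Between the agents 2 of these 91 genes were at least 1.5-fold higher with ERα17p and 2 lower, 2.20% each, beside 0.521% and 0.607% of all genes. DDIT4 was higher by 0.74 and CITED2, whose protein competes with HIF for a coactivator, by 0.73 ± 0.38 (SD, n = 3 probe sets). CITED2 stood at 0.48 on the ERα17p array, −0.26 on the estradiol array and −0.02 on the vehicle array. STC2 was lower at −0.70 ± 0.25 (SD, n = 2 probe sets) and the liver-type glucose transporter gene SLC2A2 at −0.68. Smaller differences were found for the demethylase gene KDM4B, at −0.55 ± 0.34 (SD, n = 8 probe sets), and for the carbonic anhydrase gene CA12, at −0.54 ± 0.15 (SD, n = 7 probe sets).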

How the data were processed

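T47D RNA was hybridised to Affymetrix HG-U133 Plus 2 arrays, with 1 array per group, grouped by their titles. Per the submitters' processing notes, RMA produced the deposited values (version not given in the sources used here), and they were taken as log2 values, since RMA gives log2. They lay around 0, so probe sets had been centred on a baseline that no source here states. Of 54675 probe sets, 41091 had 1 gene name in the platform annotation, 1801 several and 11721 none, and 62 were controls. Of the first kind 41037 matched a RefSeq gene number and 0 symbols needed an update. Sets with several names or none were left out. A gene's value was the mean over its probe sets, for 19775 genes, and any SD is over those sets. Precision is limited by the number of arrays, and no test was possible. Genes were counted at 1.5-fold, and a list was described by its counts and median beside those of all genes. Every member could be named, and of the other pathway genes the 6 with the largest difference per comparison. The computation was tested on simulated arrays, where all probe sets of a changed gene shifted alike by more than the counted size. This checks the arithmetic only, since the real sets of a gene often disagreed. Alternatives were a 2-fold size, the median over probe sets, probe sets ending in _x_at or _s_at left out, centring on all genes, list means, members with more than 1 probe set, a wider HIF target list and, chosen after seeing the data, the members left without the _x_at and _s_at sets but with all their sets. The members and lists were chosen with earlier results of these data known. Python 3.11.15, numpy 2.4.6, pandas 2.3.3 and matplotlib 3.10.9 were used.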

Additional observations from a re-analysis of the deposited data

How the results depend on the processing

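With 1 array per group no array could be left out within a group, and no direction or size can be set against an error between cultures. No paired analysis was possible because each group has a single array. In the absence of absolute levels, signal over background is unknown. At 2-fold in place of 1.5-fold, the members counted were 1 higher and 4 lower for ERα17p minus vehicle, 0 and 4 for estradiol minus vehicle, and 0 and 0 for ERα17p minus estradiol. Without the _x_at and _s_at probe sets, which leaves 22 members, they were 0 and 5, 0 and 3, and 0 and 0. Those 22 members with all their probe sets gave 2 higher and 4 lower with ERα17p, 2 higher and 3 lower with estradiol, and 0 and 0 between the agents. For these 22 in the comparisons with vehicle, the lower counts did not fall further without the _x_at and _s_at sets. The higher counts fell from 2 to 0 with either agent. Among the 26 members with more than 1 probe set, 5 were lower with ERα17p, 3 with estradiol and 0 between the agents. For these lists of 22 and 26 members, the share of all genes under the same restriction was not computed. The enzyme median for ERα17p minus vehicle was −0.61 without the _x_at and _s_at sets and −0.37 over the members with more than 1 set. For estradiol minus vehicle it was −0.47 without those sets and −0.46 for the same enzymes with all their sets. The HIF target median for ERα17p minus vehicle turned to −0.0098 when transporters and regulators were added to the list. Its excess over the enzyme median was then 0.47, and it was 0.76 with the median over probe sets and 0.80 without the _x_at and _s_at sets. For estradiol that excess was 0.60 without these sets and 0.60 for the same members with all their sets. The other 63 list results moved by less than 0.1 or, for counts, stayed within 1.5 times. All 61 values of single members that could be recomputed kept their direction and moved by no more than the SD over their probe sets or 0.1. Many of these could hardly move. Centring gave 25 of them and shifts every gene by the same small median, and for 1 or 2 probe sets the median equals the mean. HK2, ALDOC and ENO2 had no _x_at or _s_at set to lose. The median of a gene's sets always lies within their SD of the mean. So does the mean after 1 of 2 sets is dropped, as for PKM and BNIP3L, or 2 of 4, as for EGLN1. The limit on size thus could not be exceeded here. With ERα17p, VEGFA went to −0.38 with the median over sets. BNIP3L went to 0.42 without the _x_at and _s_at sets, and both were then under 1.5-fold. The causes of these shifts, apart from fewer members, were not tested.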
